A study of Homo sapiens with 6 samples.

Results

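SBSPON and JPH1 are protein-coding genes of one short stretch of the long arm of human chromosome 8. They differed in opposite directions between HT29 cells with a laminin α1 construct and control HT29 cells. SBSPON was 2.53-fold higher and JPH1 was 2.79-fold lower in the laminin α1 cells (3 arrays per group), while each of the other 7 neighbours measured differed by less than 0.25 on the log2 scale. The 10 genes followed, in RefSeq order, are TERF1, SBSPON, RPL7, RDH10, STAU2, UBE2W, TMEM70, LY96, JPH1 and GDAP1. They were chosen by position and from the measured difference between these same groups. Their differences are therefore given as a description, without p-values, and nothing is read from which of them pass a threshold. The platform annotation used here paired a probe set with 9 of the 10, among 18417 genes in all. UBE2W, an enzyme that attaches ubiquitin to the amino terminus of proteins, was not analysed here.

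HT29 is an established human colorectal adenocarcinoma line. One group carried an expression construct labelled control and the other one for laminin α1, which is a subunit of basement membrane laminins. Both groups had 7 days of growth and 3 separate passages of the culture each. What the constructs hold beyond this and how many clones each group comes from is not given in the labels. The p-values measure the spread between passages of these cultures.

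Neighbouring genes on a chromosome often share their copy number and can share a domain of chromatin, but each is transcribed from a promoter of its own. Copy number was not measured here. The genes of this stretch do unrelated work. SBSPON encodes a secreted matrix protein with a somatomedin B and a thrombospondin type 1 domain, and JPH1 encodes junctophilin 1, known from skeletal muscle, where it holds the calcium store close to the plasma membrane. Their neighbours serve telomeres (TERF1), ribosomes (RPL7), retinoic acid synthesis (RDH10), RNA transport (STAU2), mitochondria (TMEM70, GDAP1) and the sensing of bacterial lipopolysaccharide (LY96).

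Values are log2 expression values on the scale of RMA, a method that brings all arrays to nearly one distribution, so 1 unit is a doubling. Across genes, r was 0.995 to 0.998 for arrays that share a group and 0.991 to 0.996 for arrays that do not. LAMA1, the gene of the laminin α1 chain, averaged 5.65 ± 0.05 (SD, n = 3) in control arrays and 5.74 ± 0.05 (SD, n = 3) with laminin α1, a difference short of the limma threshold (adjusted p = 0.535). It therefore gives no check of the labels. All 14 colon epithelial markers had a mean level above the filter described further on. EPCAM, an adhesion protein of epithelia, averaged 12.1 over the arrays, and PTPRC, which marks blood cells, 3.60. Of these 14 markers, 5 were lower in the laminin α1 arrays by limma and 0 higher, where 2.59% of all genes tested were lower. The differences of the 14 ran from -1.65 (CDH17) to 0.07, with a median of -0.09. The part of these marker differences in the results below was not tested. None of the 13 tested fibroblast, endothelial, blood, muscle or neuronal markers passed.

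On the control arrays SBSPON read 9.04, 9.04 and 9.16, and on the laminin α1 arrays 10.46, 10.40 and 10.40. Every laminin α1 array lay above every control array, with a gap of 1.24 between the groups. The difference was 1.34 (SE 0.06, 95% interval 1.20 to 1.48), 33rd of 18417 genes by size. In bulk RNA, a change in the share of cells that express a gene and a change in the RNA per cell cannot be told apart.

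On the control arrays JPH1 read 9.72, 9.52 and 9.58, and on the laminin α1 arrays 8.13, 8.14 and 8.11. All laminin α1 arrays lay below all control arrays, and the gap of 1.39 was many times the spread within either group (SD 0.10 in control and 0.01 in laminin α1 arrays). The difference was -1.48 (SE 0.07, 95% interval -1.63 to -1.33), 26th of 18417 genes by size. Leaving out each array in turn, and the other settings tried, gave 1.32 to 1.38 for SBSPON and -1.52 to -1.42 for JPH1.

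**Figure D1:**
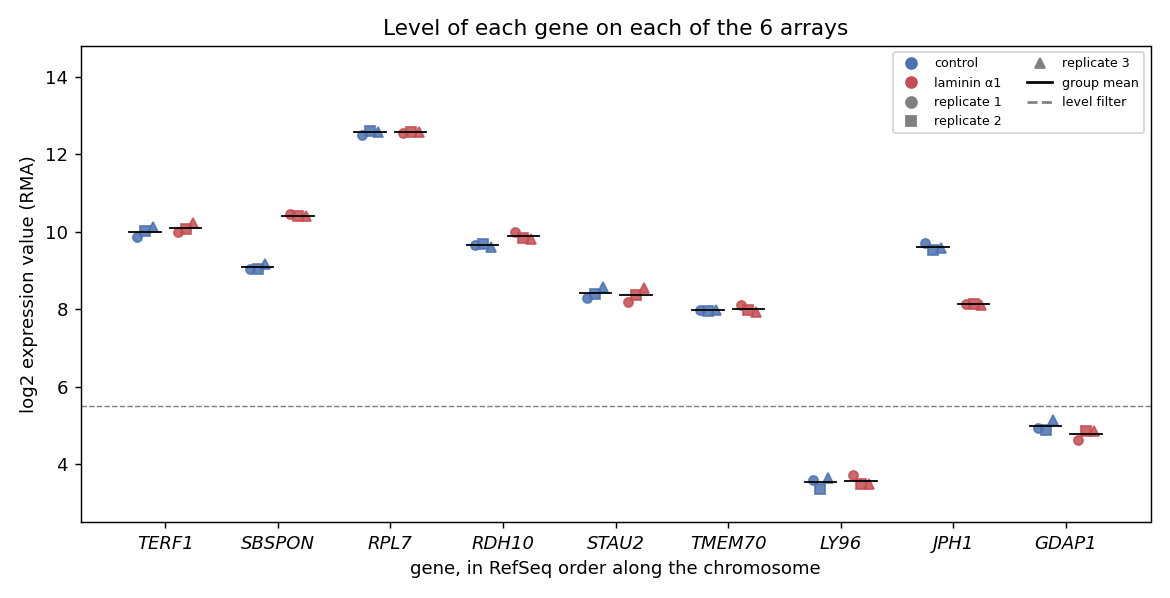
Log2 expression values of the 9 measured genes on each of the 6 arrays, in RefSeq order, with control arrays in blue, laminin α1 arrays in red, marker shapes for the replicate numbers, black bars for the group means and a dashed line at the level filter of 5.50. SBSPON and JPH1 show wide gaps between the groups in opposite directions, and LY96 and GDAP1 lie below the filter.

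The measured genes that lie between them had smaller differences, of 0.23 or less in size. RPL7, a protein of the large ribosomal subunit, had 12.51, 12.60 and 12.59 in control and 12.55, 12.57 and 12.59 in laminin α1 arrays, with overlapping groups and a difference of 0.0035 (95% interval -0.13 to 0.14). Its other 2 probe sets differed by 0.0063 and -0.01. The 3 are annotated to the same gene, and the share of near-identical copies of RPL7 in their signal is uncertain. Only the probe set at -0.01 has an identifier within the run of those of SBSPON, STAU2 and JPH1. The identifier of the kept one lies far outside that run, so its values may come in part from another place in the genome. The positions of the probe sets were not looked up. STAU2, a protein that binds double-stranded RNA and carries mRNA along microtubules, had 8.30, 8.39 and 8.58 in control and 8.19, 8.37 and 8.54 in laminin α1 arrays. These groups overlapped almost wholly, with a difference of -0.05 (95% interval -0.28 to 0.17). TMEM70, an assembly factor of the mitochondrial ATP synthase, overlapped as well, with group means of 7.97 ± 0.02 and 8.01 ± 0.09 (SD, n = 3) and a 95% interval of -0.11 to 0.18.

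RDH10 oxidises retinol to retinal, the first step towards retinoic acid. It had 9.66, 9.68 and 9.62 in control and 9.99, 9.85 and 9.82 in laminin α1 arrays. The groups did not overlap, but the gap of 0.14 was small, and the difference was 0.23 (SE 0.07, 95% interval 0.08 to 0.38).

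TERF1 at the near end of the stretch binds telomere repeats as a part of shelterin. It had 9.86, 10.02 and 10.12 in control and 10, 10.08 and 10.23 in laminin α1 arrays, and the groups overlapped (95% interval of the difference -0.09 to 0.29). A dimmer probe set of TERF1, not the one kept by the rule, did not overlap between the groups and differed by 0.24, against 0.10 for the brighter. The brighter has an identifier in the run of those of RDH10 and TMEM70, and the dimmer lies far outside it. Which of them follows the gene more closely was not tested.

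LY96, the co-receptor MD-2 that lets TLR4 bind lipopolysaccharide, lay at 3.60, 3.35 and 3.63 in control and 3.72, 3.50 and 3.50 in laminin α1 arrays. GDAP1, a mitochondrial outer membrane protein known from inherited neuropathy, had 4.93, 4.89 and 5.15 in control and 4.63, 4.86 and 4.85 in laminin α1 arrays. Both genes were dimmer than the filter at 5.50 and so entered no test. GDAP1 is the direct neighbour of JPH1 and its laminin α1 arrays were also the lower ones, but the gap between the groups was 0.03 and the interval ran from -0.42 to -0.01. The difference of -0.21 came to -0.13 without control replicate 3, -0.14 without laminin α1 replicate 1 and -0.08 with array weights.

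Among the 9 genes 4 had groups that did not overlap, SBSPON, RDH10, JPH1 and GDAP1, where 19.5% of all genes with a value did not overlap. Of the 7 genes above the filter, 1 was past the limma threshold (adjusted p under 0.05) as higher and 1 as lower. Over all 13812 genes tested, 5.29% passed, 2.69% higher and 2.59% lower. RDH10 passed in 2 of the other settings, with array weights and with the replicate number as a block. The members were selected on this contrast, so nothing is read from these counts or from the calls of RDH10. The median difference of the 9 genes was 0.04, against -0.01 over all genes.

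**Figure D2:**
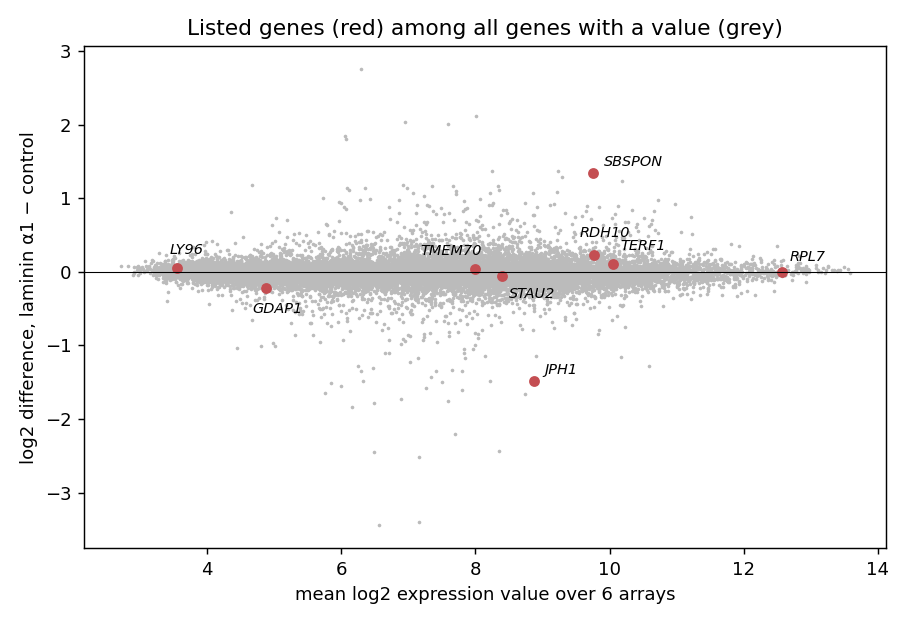
Difference between the groups (laminin α1 minus control, log2) against the mean log2 value over 6 arrays, with all 18417 genes in grey and the 9 measured genes in red. SBSPON at 1.34 and JPH1 at -1.48 lie at the outer edge of the cloud, and the other 7 lie inside it.

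RefSeq places 12 protein-coding genes from TERF1 to GDAP1, of which 10 have a value here. Between SBSPON and JPH1 there are 8, of which 6 were measured. The gene among them that is not listed above is ELOC, which encodes elongin C, a subunit of ubiquitin ligases. ELOC had 11.10, 11.25 and 11.28 in control and 11.16, 11.35 and 11.32 in laminin α1 arrays. It did not pass the limma test, with a difference of 0.07 (adjusted p = 0.737).

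The nearest genes on the TERF1 side did not pass either. KCNB2, a voltage-gated potassium channel, had a difference of -0.11 (limma adjusted p = 0.515), and TRPA1 and MSC were below the filter, with differences of 0.11 and -0.04. None of the 5 tested genes among the 15 before TERF1 passed by limma, at the adjusted or at an unadjusted p under 0.05. SLCO5A1, a gene of the organic anion transporter family chosen after its values were seen, lay below the filter. It had 5.68, 5.66 and 5.63 in control and 5.02, 5.16 and 5.08 in laminin α1 arrays, with a difference of -0.57 and adjusted p = 5.46e-04 in the limma fit without the filter.

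On the GDAP1 side, 2 of the 7 tested genes among the next 15 were lower and 0 higher by limma. Over all genes tested, 2.59% were lower. At an unadjusted p under 0.05 by limma there were 4 of the 7, and the median difference of the 7 was -0.21. PEX2, a ubiquitin ligase of peroxisome assembly, had 8.31, 8.31 and 8.51 in control and 7.91, 7.88 and 8.12 in laminin α1 arrays. The groups did not overlap and it fell by 0.41 (SE 0.09, limma adjusted p = 0.0231). TPD52, a protein of vesicle traffic, had 8.32, 8.33 and 8.40 in control and 7.86, 7.94 and 7.96 in laminin α1 arrays, again without overlap, and it fell by 0.43 (SE 0.06, limma adjusted p = 0.00314). HNF4G, a nuclear receptor of intestinal epithelium and the nearest gene above the filter, had a difference of -0.44 with overlapping groups (limma adjusted p = 0.0988, and 0.00776 without laminin α1 replicate 3). PI15 and CRISPLD1, which lie between GDAP1 and HNF4G, were below the filter, with differences of 0.02 and -0.05. The call of PEX2 was lost without any of the 3 control arrays or laminin α1 replicates 1 or 2 (adjusted p = 0.0521 to 0.118), and that of TPD52 in none of these.

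**Figure D3:**
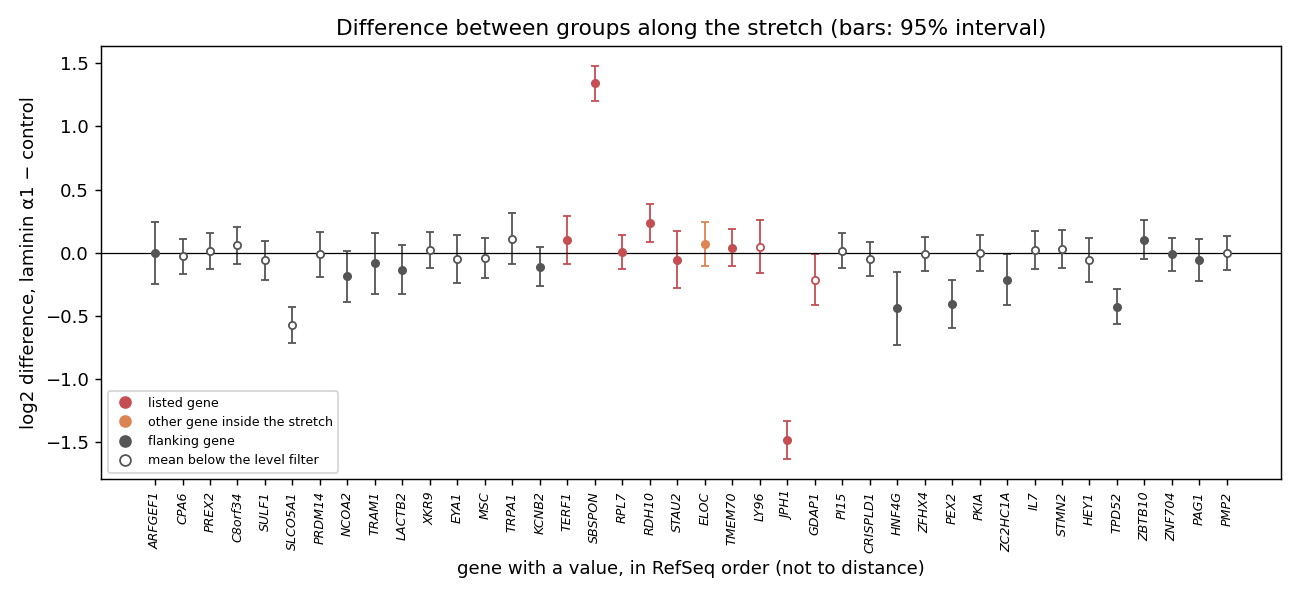
Log2 difference (laminin α1 minus control) with 95% intervals for 40 genes in RefSeq order, with listed genes in red, ELOC in orange, flanking genes in grey and open symbols for genes below the level filter. SBSPON stands alone above 0.5 and JPH1 alone below -1, while SLCO5A1 lies at -0.57. The genes between SBSPON and JPH1 lie within 0.25 of 0, with the interval of RDH10 above 0.

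Of the 13812 genes tested, 67 (0.485%) passed the limma threshold with at least a 2-fold difference, SBSPON and JPH1 among them. SBSPON and JPH1 lie 6 tested genes apart. Within that distance of each other, the 67 genes made 11 pairs, of which 10 had the same direction and 1, SBSPON and JPH1, opposite directions. Within 10 tested genes there were 14 pairs and 2 with opposite directions, the second being MGP, an inhibitor of calcification, and SLCO1B3, an organic anion transporter. The distances were chosen after the data had been seen, and these counts describe the list without a test. SBSPON and JPH1 were selected on this contrast and the first distance is their own spacing, so their pair is in the count by construction. Nothing is read from its being the only opposite pair there.

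Within the groups, SBSPON and JPH1 showed no clear mirroring, which so few arrays can judge only weakly. After each group's own mean was taken away, their deviations had r = -0.20 over the 6 arrays, which share the 2 group means that were subtracted. TERF1 and STAU2, which overlapped between the groups, had r = 0.95 in the same measure. Both were low on replicate 1 and high on replicate 3 of each group, for example STAU2 at -0.12 and 0.16 in control and -0.18 and 0.18 in laminin α1 arrays. This order was not particular to them. The flanking genes ARFGEF1, TRAM1 and HNF4G also rose from replicate 1 to replicate 3 in both groups, while others, such as PAG1, did not. Over all genes tested, the deviations of same-numbered arrays correlated at 0.39, 0.02 and 0.53, against at most 0.16 for different numbers. The most negative value was that of RPL7 and JPH1, r = -0.94, followed by RDH10 and GDAP1 at -0.86 and by RDH10 and STAU2, direct neighbours among the measured genes, at -0.85. These are the extremes picked from all pairs of the 9 measured genes, over 6 arrays. The largest deviation of RPL7 was only -0.055, and the largest of JPH1 in laminin α1 arrays -0.017.

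**Figure D4:**
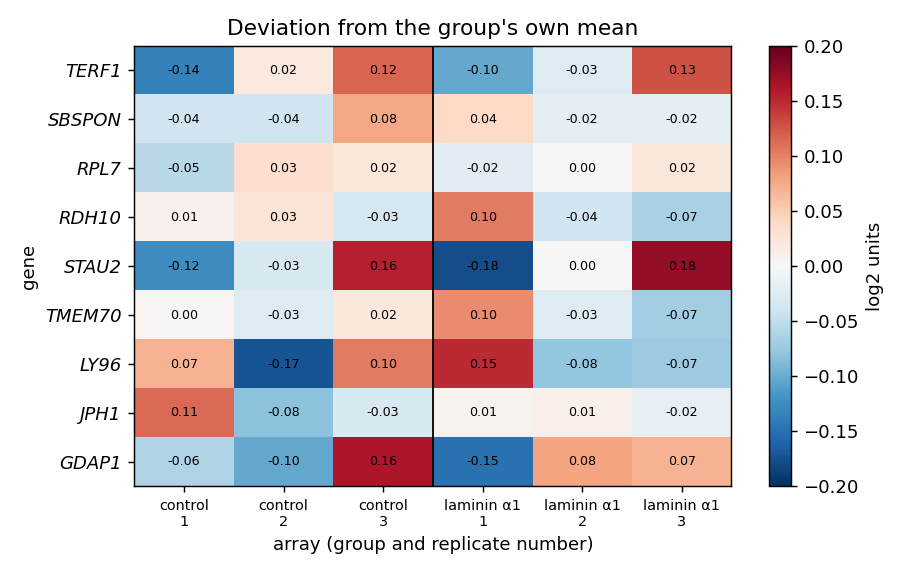
Deviation of each array from the mean of its own group (log2 units, red above and blue below) for the 9 measured genes. TERF1 and STAU2 are low on replicate 1 and high on replicate 3 of both groups, and the largest deviation of SBSPON is 0.08.

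The genes whose values over the 6 arrays were most like those of SBSPON were UCA1, SNORA27, POLR1D, DMKN and B3GLCT, with Pearson r from 0.996 to 0.997. Those most like JPH1 were ATOH1, MAOA, TFDP2, SCCPDH and RETNLB, with r from 0.996 to 0.998. These values are set mainly by the gap between the 3 arrays of one group and the 3 of the other, and are a description only. For the same reason SBSPON and JPH1 had r = -0.996 across all arrays, unlike their deviations within groups.

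The pathways and families of the 10 genes were followed in 10 lists that leave out the genes themselves. Of 175 list genes tested, 2 were higher and 2 lower by limma, or 2.29%, against 5.29% of all genes tested, and 18 had an unadjusted p under 0.05.

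For SBSPON, the list held proteins with thrombospondin type 1 or somatomedin B domains, and 2 of 12 tested were lower and 0 higher. ENPP2, the enzyme autotaxin that makes lysophosphatidic acid, had 6.57, 6.65 and 6.60 in control and 4.96, 5.20 and 5.13 in laminin α1 arrays. It fell by 1.51 (SE 0.08, limma adjusted p = 2.77e-06), at least 2.16-fold when its laminin α1 mean, which lay below the filter, is set to the filter's 5.50. ENPP2 is also on chromosome 8, 107 tested genes from SBSPON. CCN2, a matricellular growth factor, had 7.81, 7.62 and 7.82 in control and 7.11, 7.08 and 7.07 in laminin α1 arrays and fell 1.58-fold (limma adjusted p = 4.41e-04). The median difference of the list was -0.04.

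For JPH1, the list of junctophilins and of calcium release from stores had 0 of 20 tested genes past the threshold and 2 at an unadjusted p under 0.05 by limma, with a median of -0.03. The paralogs JPH2, JPH3 and JPH4 had differences of -0.05, -0.14 and -0.05 and limma adjusted p of 0.789, 0.417 and 0.788. ATP2A3, a calcium pump of the endoplasmic reticulum, had -0.23 (limma adjusted p = 0.192), and ITPR3, a calcium release channel, had 0.19 (limma adjusted p = 0.240).

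The retinoid list, which goes with RDH10, had 1 of 15 tested genes higher and 0 lower. CRABP2, which carries retinoic acid to its receptor, had 10.53, 10.49 and 10.35 in control and 10.86, 10.85 and 10.71 in laminin α1 arrays. The groups did not overlap and CRABP2 rose 1.27-fold (SE 0.07 on the log2 scale, limma adjusted p = 0.0239). RDH11, another retinol dehydrogenase, had -0.21 (limma adjusted p = 0.0961).

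In the list of RNA-binding and transport proteins that goes with STAU2, 1 of 12 was higher and 0 lower. UPF1, the helicase of nonsense-mediated decay that Staufen proteins can recruit, had 8.83, 8.81 and 8.74 in control and 9.21, 9.17 and 9.02 in laminin α1 arrays and rose 1.26-fold (limma adjusted p = 0.0236). TARBP2, a partner of Dicer, had 0.20 (limma adjusted p = 0.200). The call of CRABP2 was lost without control replicates 2 or 3 or laminin α1 replicates 1 or 2, and that of UPF1 without those or control replicate 1 (adjusted p up to 0.119 for either).

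The other 6 lists had 0 genes past the limma threshold. These were 10 tested genes of shelterin and telomerase, 35 of the large ribosomal subunit, 25 ubiquitin-conjugating enzymes and partners, 18 of ATP synthase, 14 of the TLR4 complex and signalling, and 14 of mitochondrial fission and fusion. At an unadjusted p under 0.05 they held 0, 0, 2, 0, 1 and 3 genes. TLR4 itself, the receptor that LY96 serves, had 8.52, 8.62 and 8.99 in control and 8.69, 8.96 and 9.26 in laminin α1 arrays, with overlap (limma adjusted p = 0.461). CD14, which hands lipopolysaccharide to that receptor, had a difference of 0.20 (limma adjusted p = 0.284). Among the enzymes related to UBE2W, UBE2L6, which conjugates ISG15, had 0.38 (limma adjusted p = 0.127). Without laminin α1 replicate 3 it passed, at 0.50 (limma adjusted p = 0.0198), and without laminin α1 replicate 1 it had 0.23 (limma adjusted p = 0.25). UBE2Q2 had -0.17 (limma adjusted p = 0.296).

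The mitochondrial list that goes with GDAP1 had MFF, which recruits the fission machinery, at -0.21 (limma adjusted p = 0.0969) and the protease OMA1 at -0.25 (limma adjusted p = 0.229). In the ATP synthase list of TMEM70, the subunit ATP5MF had 0.11 (limma adjusted p = 0.417) and the assembly factor ATPAF2 had 0.19 (limma adjusted p = 0.457). The shelterin partners of TERF1 with the smallest p were TINF2, with a difference of 0.16 (limma adjusted p = 0.433), and POT1, with -0.27 (limma adjusted p = 0.521). For the ribosomal proteins beside RPL7 these were RPL32, with 0.17 (limma adjusted p = 0.395), and RPL41, with 0.12 (limma adjusted p = 0.398). The medians of the 6 lists lay between -0.13 for fission and fusion and 0.03 for the TLR4 list.

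**Figure D5:**
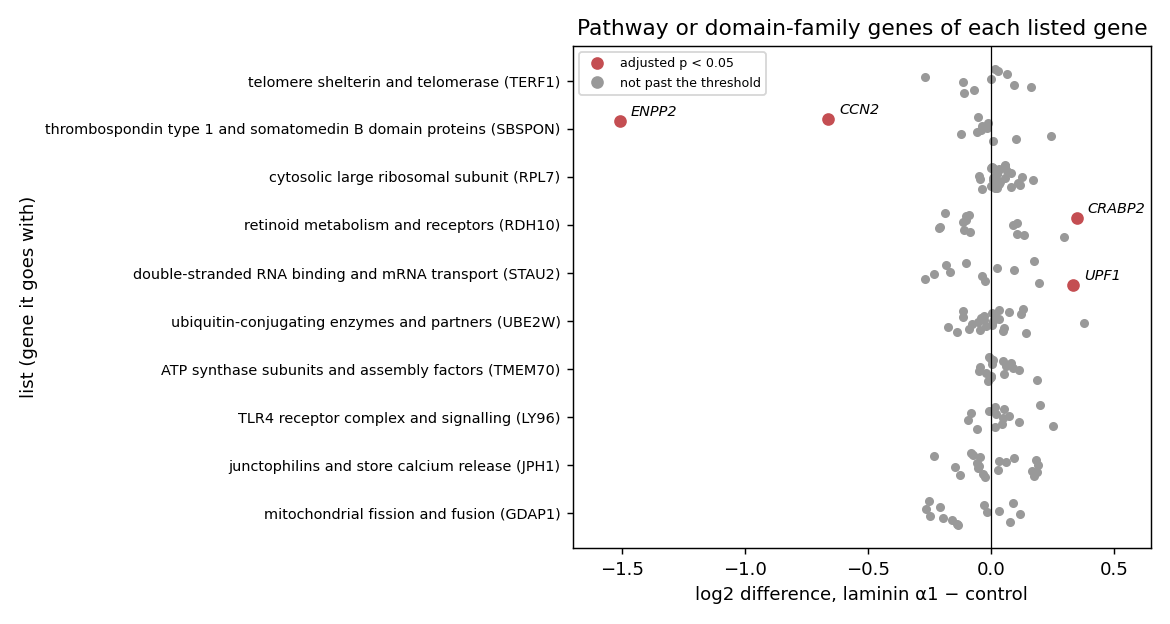
Log2 difference (laminin α1 minus control) of each tested gene in the 10 lists, with genes past the limma threshold in red and named. ENPP2 and CCN2 are lower, CRABP2 and UPF1 are higher, and of the others UBE2L6, at 0.38, lies farthest from 0.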

How the data were processed

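Probe set values of 6 arrays were used as deposited, on a log2 scale. Per the submitters' processing notes, the authors used RMA and Affymetrix Expression Console 1.1. The table held 33297 probe sets, with array medians of 6.45 to 6.49. No genome build is named. The platform annotation lists 1 symbol for 19460 probe sets, several for 1754 and none for 12083. Per gene, the probe set with the highest mean was kept. Gene order came from RefSeq for GRCh38.p14.

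Differences are laminin α1 minus control, from limma 3.58.1 (lmFit, eBayes) in R 4.3.3, with Benjamini-Hochberg adjustment over the 13812 genes above the 25th percentile of mean level (5.50). Differences, standard errors and intervals of listed and neighbouring genes came from the fit over all 18417 genes. The fit was run on simulated data drawn independently for each gene and array. These lacked the deviations shared by same-numbered arrays, so the simulation does not cover them. The number of arrays limits the precision.

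Genes and lists were chosen with earlier results of these data known. Named were all listed genes; the unlisted genes inside the stretch, the nearest 3 on each side and those past the threshold among 15; the 2 smallest p per list and up to 4 past the threshold; and the 5 most similar genes. JPH2 to JPH4 were added as paralogs.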

Additional observations from a re-analysis of the deposited data

How the results depend on the processing

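The differences of the 9 measured genes moved by less than 1 SD, pooled over both groups for each gene, in all 11 settings tried for them (mean of probe sets, centring, repeated quantile normalization, array weights, replicate block and each array left out), and their median lay between 0.01 and 0.05. Most of these settings could not have shown a larger move. Leaving out 1 of 3 arrays cannot shift a difference by 1 such SD, and the block leaves each difference unchanged. The mean of probe sets can alter only TERF1 and RPL7, which have several. The difference of GDAP1 ran from -0.26 to -0.08. The sign of RPL7, STAU2, TMEM70 and LY96, whose groups overlap, was not the same in every setting. The counts past the limma threshold depended on the spread assumed. With array weights, whose estimation stopped before it converged, 4691 genes passed in place of 730, with 53 pathway genes in place of 4 and 5 neighbours in place of 2. With the replicate number as a block, 1596 genes, 15 pathway genes and 4 neighbours passed. The labels do not say that the numbers pair the arrays, the deviations of same-numbered arrays correlated at 0.39, 0.02 and 0.53, and 4 of 6 arrays correlated best with their own number. Leaving out each array in turn gave 407 (without control replicate 2) to 1214 genes (without laminin α1 replicate 3), 2 to 8 pathway genes and 1 to 4 neighbours, the highest again without laminin α1 replicate 3. The other 5 settings (no filter, the 50th percentile, mean of probe sets, centring, quantile normalization) and the trended eBayes kept all 3 counts within 1.5 times. Cause was not tested.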

Other observations

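Leaving out the listed genes but not ELOC, 28 of 466 tested genes of chromosome 8 passed the limma threshold, 22 lower and 6 higher, or 6.01%. Before TERF1, 8 of 220 were lower and 4 higher, and after JPH1, 14 of 245 were lower and 2 higher. The medians on these sides were -0.01 and -0.02. The nearest gene past the threshold before SBSPON was CLVS1, 24 tested genes away, with a difference of 0.88 (limma adjusted p = 1.86e-04), and the nearest after JPH1 was PEX2, 2 tested genes away.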
